A study of Mus musculus with 6 samples.

Results

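Cxcl9, Cxcl10 and Cxcl11 are the 3 mouse genes of the interferon-induced chemokines that bind the receptor CXCR3. They were taken by gene symbol from a count table of 56832 genes, and each symbol matched 1 gene. They were read in RNA sequencing of blood monocytes, so labelled, in 3 libraries from thrombocytopenic and 3 from control mice. The thrombocytopenic mice are labelled PF4cre-iDTR. A Cre recombinase under the promoter of Pf4, a gene of megakaryocytes and platelets, is meant to induce a diphtheria toxin receptor in those cells. The control mice were wild type (WT). The labels give the toxin (spelled "Diptheria Toxin") as treatment of both groups, so genotype and platelet state differ together and cannot be told apart. Age, strain and time after toxin are not stated. The labels also leave unsaid whether each library is a mouse of its own, and a p-value here therefore reflects library-to-library spread, possibly only technical.

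CXCL9, CXCL10 and CXCL11 are small secreted proteins that guide cells bearing CXCR3, chiefly activated T cells and natural killer (NK) cells, towards sites of infection or inflammation. Monocytes and macrophages are among their main sources. Interferons switch the genes on through the kinases JAK1, JAK2 and TYK2 and transcription factors such as STAT2 and IRF9. Cxcl10 responds to type I interferons, interferon gamma and NF-kB signals alike, while Cxcl9 depends mostly on interferon gamma. The product of Cxcl11 binds CXCR3 tightly and also binds the scavenging receptor ACKR3. In the reference strain C57BL/6J the Cxcl11 gene is annotated by RefSeq (GRCm38.p6) as a transcribed pseudogene, so its RNA need not give a working protein. The strain of these mice was not given.

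The 3 genes lie side by side on mouse chromosome 5, all on the minus strand. The bases just before the start of transcription are shown for the genes that the RefSeq promoter table holds, Cxcl9 and Cxcl10. They are shown because the stretches differ in their exact matches to interferon and NF-kB motifs. Each is the 250 bases upstream of the start, read 5′ to 3′ on the strand of the gene, from RefSeq on build GRCm38.p6, at chr5:92328080-92328329 for Cxcl9 and chr5:92348890-92349139 for Cxcl10. Capitals mark the matches described in the next paragraph.
Cxcl9: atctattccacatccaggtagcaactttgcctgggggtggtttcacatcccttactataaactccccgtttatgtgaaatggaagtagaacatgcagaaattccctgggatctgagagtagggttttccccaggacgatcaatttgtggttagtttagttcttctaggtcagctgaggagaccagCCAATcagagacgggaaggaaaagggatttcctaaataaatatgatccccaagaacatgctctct
Cxcl10: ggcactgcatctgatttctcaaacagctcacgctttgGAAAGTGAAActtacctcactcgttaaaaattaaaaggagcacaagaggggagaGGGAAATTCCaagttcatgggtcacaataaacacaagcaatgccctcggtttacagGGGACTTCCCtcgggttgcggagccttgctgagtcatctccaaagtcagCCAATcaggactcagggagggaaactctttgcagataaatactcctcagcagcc

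Both strands were searched for 4 motifs, with no mismatch allowed. Near matches were not counted, such as gggatttcct in Cxcl9, which departs from the kappa B consensus at its last base. The core of the interferon-stimulated response element, GAAANNGAAA, was matched once, in Cxcl10, at 213 to 204 bases before the start, and in 2.98% of 32851 upstream windows of the same length. The consensus kappa B motif, a site of NF-kB, was matched at 2 places in Cxcl10, at 159 to 150 and at 103 to 94 bases before the start, and in 3.90% of the windows. The core of the gamma-activated sequence, TTCNNNGAA, was matched in neither gene and in 7.02% of the windows. The CCAAT box, added after the sequences were seen, was matched once in each gene and in 33.8% of the windows. It lay in the longest run of bases that both stretches shared, CAGCCAATCAG, 11 bases long. None of these motifs overlapped another. A match describes letters only, and the libraries hold no measurement of binding.

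All 3 ligand genes were lower in the thrombocytopenic libraries, Cxcl11 by 2.19-fold, Cxcl9 by 1.86-fold and Cxcl10 by 1.45-fold. Each thrombocytopenic library lay below each control library for all 3 genes. Of 12488 genes tested, 45.1% passed the same threshold in either direction, and 22.7% of all tested genes were lower and 22.4% higher, so a lower call alone was common. Thrombocytopenic libraries lay wholly below the control libraries for 26.1% of genes. The size of the change was less common: 9.05% of genes had a log2 fold change at or below that of Cxcl10, 3.62% one at or below that of Cxcl9 and 2.47% one at or below that of Cxcl11. The test was edgeR's quasi-likelihood test with Benjamini-Hochberg adjustment over all genes tested and a threshold of 0.05. In RNA from a population of cells, fewer cells that express a gene and less of its RNA per cell cannot be told apart.

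Cxcl10, the most abundant of the 3, had 3552, 3533 and 3340 CPM (counts scaled to library size, with TMM factors) in thrombocytopenic libraries 1, 2 and 3, against 5180, 4859 and 5043 CPM in control libraries 1, 2 and 3. The highest thrombocytopenic library stood clearly below the lowest control library. The mean was 3475 ± 118 CPM in the thrombocytopenic group and 5027 ± 161 CPM in the control group (SD, n = 3 each), a log2 fold change of -0.53 (SE 0.025; edgeR adjusted p = 6.02e-22). Over the 9 pairs of a thrombocytopenic and a control library, the thrombocytopenic level was 64.5% to 73.1% of the control level. With 105476 to 174997 counts in a library, counting error was about 0.3% of the level, and the libraries of a group varied by 3.39% in the thrombocytopenic and 3.21% in the control group (coefficient of variation). Cxcl10 alone took 0.353%, 0.353% and 0.334% of all counts in the thrombocytopenic libraries, against 0.519%, 0.487% and 0.505% in the control libraries.

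Cxcl9, the gene known as the ligand most dependent on interferon gamma, had 327, 238 and 259 counts in the thrombocytopenic libraries, against 349, 574 and 416 counts in the control libraries. Scaled for depth these were 8.76, 7.97 and 7.24 CPM in the thrombocytopenic libraries, against 14.02, 15.9 and 14.5 CPM in the control libraries. The groups did not overlap. The means were 7.99 ± 0.76 CPM in thrombocytopenic and 14.8 ± 1.0 CPM in control libraries (SD, n = 3 each), with a log2 fold change of -0.90 (SE 0.079; edgeR adjusted p = 3.33e-14). The 95% exact binomial interval was 6.38 to 8.18 CPM for the lowest library, thrombocytopenic replicate 3, and 14.7 to 17.3 CPM for the highest, control replicate 2. Such intervals take in counting error alone, as reads copied by PCR do not stand for separate molecules. Libraries of a group varied by 9.51% in the thrombocytopenic and 6.74% in the control group, where counting alone gives 6.08% and 4.81%.

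Cxcl11 had 342, 247 and 282 counts in the thrombocytopenic libraries, against 484, 637 and 537 counts in the control libraries. These were 9.16, 8.28 and 7.88 CPM in thrombocytopenic libraries, against 19.4, 17.7 and 18.7 CPM in control libraries. The highest thrombocytopenic library stood far below the lowest control library. The means were 8.44 ± 0.65 CPM in the thrombocytopenic and 18.6 ± 0.88 CPM in the control group (SD, n = 3 each), with a log2 fold change of -1.13 (SE 0.073; edgeR adjusted p = 2.25e-19). Over the 9 pairs of libraries the thrombocytopenic level was 40.5% to 51.8% of the control level.

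**Figure D1:**
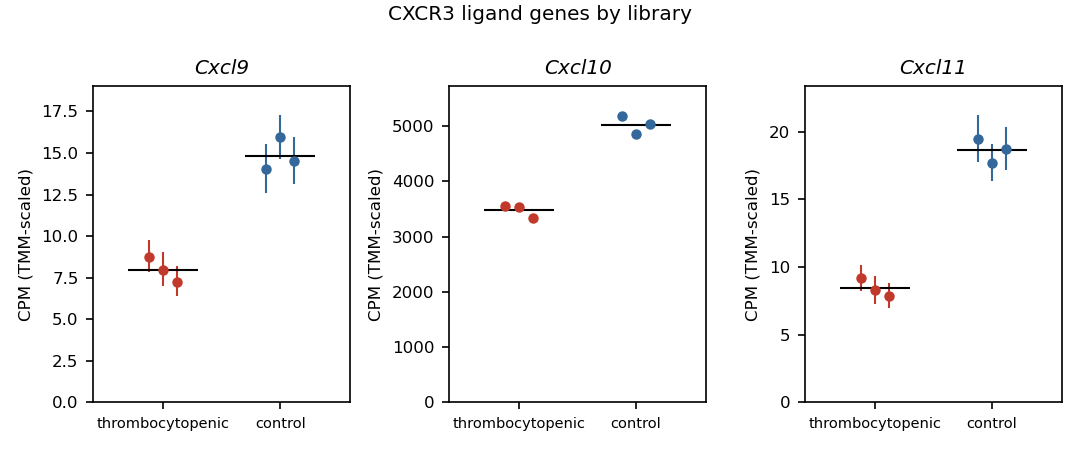
CPM of Cxcl9, Cxcl10 and Cxcl11 in each library (points, with 95% exact binomial intervals that cover counting error only; intervals of Cxcl10 are smaller than the points); horizontal lines are means of 3 libraries, and each panel has its own axis from 0. In every panel the 3 thrombocytopenic libraries sit below the 3 control libraries, between 3340 and 3552 CPM against 4859 to 5180 CPM for Cxcl10.

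Per length, the ligand genes formed 2 tiers. Cxcl10 stood at 1543 CPM per kb of exon in the thrombocytopenic and 2232 CPM per kb in the control group, taking exon lengths from GENCODE M21, which may differ from the annotation used for counting. It ranked 13 in the thrombocytopenic and 8 in the control group among 12075 tested genes with a length (96.7% of those tested). Cxcl9 stood at 2.65 CPM per kb in thrombocytopenic and 4.91 CPM per kb in control libraries, and Cxcl11 at 2.22 CPM per kb in thrombocytopenic and 4.91 CPM per kb in control libraries. Over libraries the ranges of Cxcl9 and Cxcl11 overlapped in both groups, though within each thrombocytopenic library Cxcl9 was above Cxcl11. Among control libraries Cxcl9 was above Cxcl11 in replicate 2 alone. In thrombocytopenic libraries Cxcl9 spanned 2.40 to 2.90 and Cxcl11 2.08 to 2.41 CPM per kb, and in control libraries Cxcl9 spanned 4.65 to 5.28 and Cxcl11 4.66 to 5.12 CPM per kb.

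The 2 rarer ligand genes fell further than Cxcl10, as ratios within each library show, in which depth and gene length cancel. For each 1000 counts of Cxcl10 there were 2.58, 2.34 and 2.36 counts of Cxcl11 in the thrombocytopenic libraries, against 3.75, 3.64 and 3.71 in the control libraries. The groups did not overlap, and the control values were close together. Taking the Cxcl10 count of each library as the offset of the edgeR fit, Cxcl11 had a further log2 change of -0.60 (SE 0.085; edgeR adjusted p = 2.28e-12). Cxcl9 stood at 2.46, 2.26 and 2.17 counts per 1000 of Cxcl10 in thrombocytopenic libraries, against 2.71, 3.28 and 2.87 in control libraries. Its further log2 change was -0.37 (SE 0.089; edgeR adjusted p = 6.01e-05). In this fit 81.7% of 12487 genes differed from Cxcl10 in their change. Most of these had a higher fold than Cxcl10, as 77.8% of all genes did, so a larger fall than that of Cxcl10 was uncommon.

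Between Cxcl11 and Cxcl9 the difference was not past the threshold. The ratio of Cxcl11 to Cxcl9 counts was 1.05, 1.04 and 1.09 in thrombocytopenic libraries, against 1.39, 1.11 and 1.29 in control libraries. The groups did not overlap, but control replicate 2 was close to the thrombocytopenic libraries. With Cxcl9 as offset the log2 difference was -0.25 (SE 0.13; edgeR adjusted p = 0.0608). In that fit 89.7% of genes differed from Cxcl9, and 88.1% of genes had a higher fold than Cxcl9. The call depended on single libraries: the log2 difference was -0.34 without control replicate 2 (edgeR adjusted p = 0.0236) and -0.27 without thrombocytopenic replicate 3 (adjusted p = 0.0384). An exact permutation test of each of the 3 log ratios over libraries gave p = 0.1, two-sided, also after adjustment over the 3 ratios, and 0.1 is the smallest value that 3 against 3 libraries can give.

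**Figure D2:**
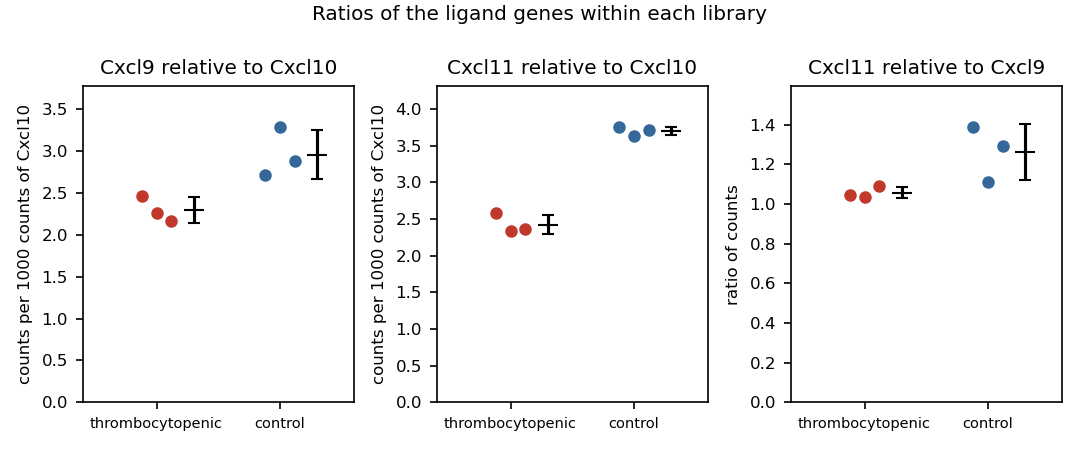
Ratios of counts within each library (points) with the mean ± SD of 3 libraries beside them, for Cxcl9 and Cxcl11 per 1000 counts of Cxcl10 and for Cxcl11 over Cxcl9; all axes start at 0. Cxcl11 per 1000 counts of Cxcl10 averaged 2.43 in the thrombocytopenic and 3.70 in the control libraries, with a wide gap between the groups, while Cxcl11 over Cxcl9 averaged 1.06 in the thrombocytopenic and 1.26 in the control libraries, with 1 control library near the thrombocytopenic ones.

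RNA of most interferons, the inducers of these genes, was not detected. Of 16 interferon ligand genes, 14 had no count in any library, Ifng and each listed interferon alpha gene among them. A count of 0 allows up to 0.0803 to 0.101 CPM in a thrombocytopenic library and up to 0.0833 to 0.120 CPM in a control library, taking 3 counts as the limit. Ifnk had 1 count in each group. Ifnb1, interferon beta, was the ligand tested, at 4.04 ± 0.87 CPM in thrombocytopenic and 2.63 ± 0.22 CPM in control libraries (SD, n = 3 each), and was higher (log2 fold change 0.63, SE 0.15; edgeR adjusted p = 0.00035). It thus went the opposite way to the ligand genes, where 22.4% of all tested genes were higher.

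Of 11 tested receptor and JAK-STAT genes, 4 were lower and 2 higher. Among all genes tested 22.7% were lower and 22.4% higher. The median log2 fold change was -0.03 against 0.00 over all genes tested. Stat2, a transcription factor of the type I pathway, had a log2 fold change of -0.18, and Irf9, its DNA-binding partner, one of 0.02, which was not past the threshold. Jak2 was at -0.23. The type I receptor genes Ifnar1 and Ifnar2 were at 0.02 and -0.04 and the kinase gene Jak1 at -0.02, all not past the threshold. The ligand-binding chain of the interferon gamma receptor, Ifngr1, was higher (0.51), while its partner Ifngr2 was at -0.03 and not past the threshold. Tyk2 was the other higher gene (0.08), and the number of higher genes was 1 under upper quartile scaling and without thrombocytopenic replicate 3, control replicate 1 or control replicate 3.

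Among 7 interferon regulatory factors 5 were lower and none higher, with a median of -0.26. The shares over all tested genes were 22.7% lower and 22.4% higher. Irf1, which binds interferon response elements after interferon gamma, was at -0.26, Irf7 at -0.33 and Irf8, a factor of the monocyte lineage, at -0.40. Irf2 (-0.11) and Irf4 (-1.65, on 38 counts in thrombocytopenic and 105 in control libraries) were the other lower genes, and Irf3 (0.08) and Irf5 (-0.05) were not past the threshold. Of 8 feedback inhibitors of interferon signalling 3 were lower, Socs1 (-0.22), Usp18 (-0.24) and Isg15 (-0.23), and 2 were higher, Socs3 (0.46) and the phosphatase gene Ptpn6 (0.42). Pias1 (0.08), Ptpn11 (0.05) and Ptpn2 (0.03) were not past the threshold.

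Signals upstream of interferon were mixed. Of 18 tested sensors and adaptors 10 were lower and 5 higher, with a median of -0.13. Over all tested genes 22.7% were lower and 22.4% higher. The nucleic acid receptors Tlr9 (-1.06), Tlr3 (-0.56) and Tlr7 (-0.40) were lower, as was the RNA sensor Ifih1 (-0.30). The kinase gene Ikbke (0.35), the adaptor Ticam2 (0.32) and the co-receptor Cd14 (0.29) were higher, as were Tbk1 (0.15) and Myd88 (0.11). Tlr4 (-0.12), Ly96 (0.08) and Ticam1 (0.00), the lipopolysaccharide receptor, its partner and an adaptor, were not past the threshold. NF-kB genes moved mostly the other way to the ligand genes: 11 of 14 were higher and 1, Ikbkb (-0.09), was lower, with a median of 0.26. The lower count was 2 under upper quartile scaling and without control replicate 1. The subunit genes Rel (0.54), Relb (0.33) and Rela (0.30) were higher, as was Nfkbiz (0.78), a nuclear regulator of NF-kB target genes, and Tnfaip3 (0.33), an inhibitor of the pathway. Nfkb1 (0.02) and Nfkbib (-0.06) were not past the threshold.

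**Figure D3:**
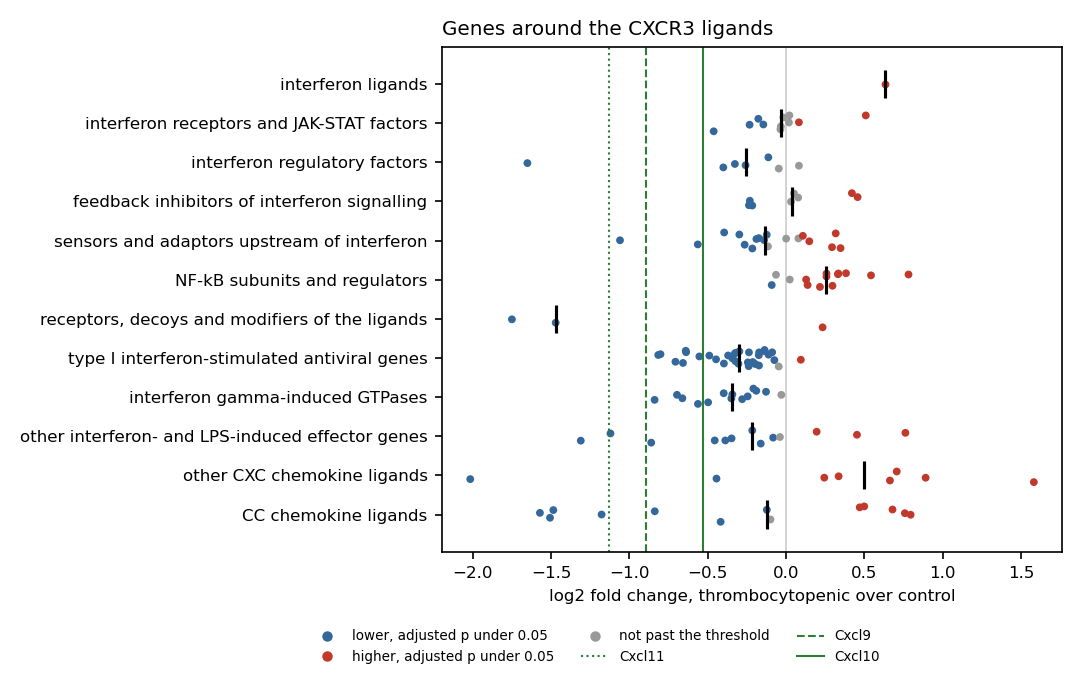
Log2 fold changes, thrombocytopenic over control, of the tested genes in each list around the ligand genes (points, jittered vertically; short black lines are list medians; green vertical lines are Cxcl11, Cxcl9 and Cxcl10). Of the 14 NF-kB genes 11 lie right of 0 and are higher. Of the 33 type I interferon-stimulated genes 31 are lower and most of them lie right of the Cxcl10 line. Among all tested genes 22.4% were higher and 22.7% lower.

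Most other interferon-stimulated genes were lower as well. Of 33 type I interferon-stimulated antiviral genes 31 were lower and 1, Ifitm3 (0.09), was higher, with a median of -0.30. Across all tested genes 22.7% were lower and 22.4% higher. Parp14 (-0.05) was not past the threshold, and without control replicate 2 none was higher. Isg15, Usp18, Irf7, Ifih1 and Ddx58 also belong to lists above and were counted there too. Of 14 tested GTPase genes induced by interferon gamma 13 were lower and none higher, with a median of -0.35. Irgm2 (-0.03) was not past the threshold, and Gbp8, Gbp10 and Gbp11 had too few counts to be tested. Set against Cxcl10 in the offset fit, 24 of the 33 antiviral genes had a higher fold than Cxcl10, where 77.8% of all genes did. A further 6 had a lower fold, and 3 did not differ past the threshold. Over all genes 81.7% differed from Cxcl10 in either direction, most of them with a higher fold, so a lower fold was uncommon. The 6 were Rsad2, Ifit2, Ifit3, Ifit3b, Cmpk2 and Ifi44, of which Ifit3 and Ifit3b are near copies whose reads may be shared, and the number was 3 without thrombocytopenic replicate 2, control replicate 2 or control replicate 3. Rsad2, an antiviral enzyme gene, had a log2 difference of -0.28 from Cxcl10 (SE 0.040; edgeR adjusted p = 2.97e-12), and Ifit2, which binds viral RNA, one of -0.27 (SE 0.044; edgeR adjusted p = 1.38e-09). Oasl1 did not differ from Cxcl10 past the threshold, with a difference of -0.02 (SE 0.043; edgeR adjusted p = 0.646). Of the 14 GTPase genes 8 had a higher fold than Cxcl10, 4 did not differ past the threshold, and 2, Iigp1 (-0.31) and Gbp9 (-0.13), had a lower one. That number was 1 without thrombocytopenic replicate 1, thrombocytopenic replicate 2 or control replicate 3.

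Set against the rarer ligand genes, the share of antiviral genes with a higher fold was near that of all genes. That share tells little, as only 3.62% of all genes had a fold at or below that of Cxcl9 and 2.47% that of Cxcl11. By median log2 fold change the antiviral genes were lower than genes in general, at -0.30 against -0.0008. Of the 33 antiviral genes 29 had a higher fold than Cxcl9 and none a lower one, where 88.1% of all genes had a higher fold. All 33 had a higher fold than Cxcl11, as did all 14 GTPase genes, where 93.2% of all genes did. Both shares were near the background. Rsad2 and Ifit2 did not differ from Cxcl9 past the threshold, with log2 differences of 0.08 (SE 0.11) and 0.09 (SE 0.11). Among 13 other effector genes induced by interferon or lipopolysaccharide, 9 were lower and 3 higher. Of all tested genes 22.7% were lower and 22.4% higher, so the share of higher genes was near the background. Nos2, inducible nitric oxide synthase, fell by more than Cxcl10 and Cxcl9, with differences of -0.78 (SE 0.048) and -0.41 (SE 0.11). Ciita, the transactivator of MHC class II genes, named after its value was seen, did not differ past the threshold from Cxcl11 (0.02, SE 0.12; edgeR adjusted p = 0.882). Tnfsf10, the death ligand TRAIL, did not differ past the threshold from Cxcl9 (0.03, SE 0.11; edgeR adjusted p = 0.805). The higher genes were Ebi3 (0.76), Fas (0.45) and Il27 (0.20), and Acod1 (-0.04) was not past the threshold. Socs1, a lower gene of this list, was also counted among the feedback inhibitors.

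Other chemokine genes moved in both directions, where 22.7% of all tested genes were lower and 22.4% higher. Of 8 other CXC ligand genes tested 6 were higher, and these were the neutrophil attractants Cxcl1 (0.71), Cxcl2 (0.89), Cxcl3 (0.34) and Cxcl5 (1.58) and the platelet chemokine genes Pf4 (0.24) and Ppbp (0.66). Cxcl16 (-0.44) and Cxcl14 (-2.02) were lower like the CXCR3 ligand genes. Of 13 CC ligand genes 5 were higher, Ccl3 (0.76) with the smallest p among them, 7 were lower and Ccl25 (-0.10) was not past the threshold. The monocyte attractants Ccl2 and Ccl7 fell by more than Cxcl11, with log2 differences of -0.36 (SE 0.082; edgeR adjusted p = 1.17e-05) and -0.34 (SE 0.082; edgeR adjusted p = 3.65e-05). Ccl5, which attracts T cells through other receptors, fell by less than Cxcl10, with a difference of 0.41 (SE 0.042; edgeR adjusted p = 8.23e-22). By level per kb of exon, Cxcl10 ranked 4 in the thrombocytopenic and 2 in the control group among 24 tested chemokine genes, while Cxcl9 ranked 18 in the thrombocytopenic and 19 in the control group and Cxcl11 ranked 19 in the thrombocytopenic and 20 in the control group. In the control group only Ccl5 stood above Cxcl10. In the thrombocytopenic group Ccl3, Ccl5 and Ccl4 did.

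**Figure D4:**
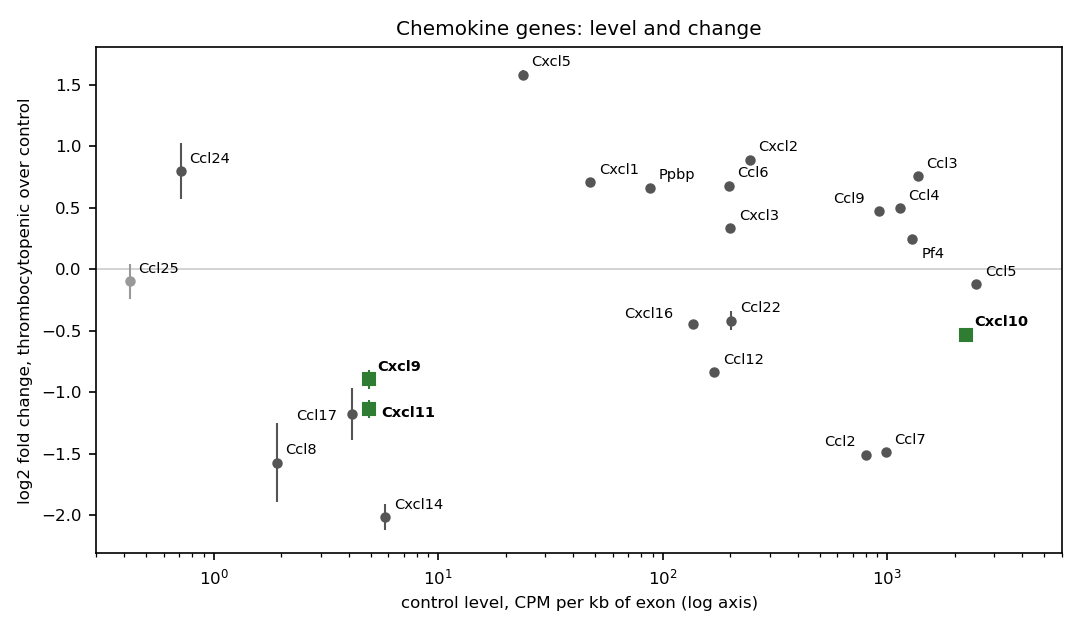
Log2 fold change, thrombocytopenic over control (points, with SE), of 24 tested chemokine genes against their mean level in control libraries in CPM per kb of exon (log axis); green squares are the CXCR3 ligand genes and grey marks the gene not past the threshold. Cxcl10 lies at the far right at 2232 CPM per kb and a log2 fold change of -0.53, and Cxcl9 and Cxcl11 lie together near 4.91 CPM per kb at -0.90 and -1.13.

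The receptor gene for these ligands was rare in the same libraries. Cxcr3 had 16, 16 and 27 counts in the thrombocytopenic libraries, against 42, 70 and 62 counts in the control libraries. Every thrombocytopenic value was below every control value, with 0.573 ± 0.17 CPM in the thrombocytopenic and 1.93 ± 0.24 CPM in the control group (log2 fold change -1.75, SE 0.25; edgeR adjusted p = 3.15e-08). Dpp4, a protease that trims these chemokines and weakens their action, was at 0.871 ± 0.34 CPM in thrombocytopenic and 2.46 ± 0.33 CPM in control libraries (log2 fold change -1.47). Sdc4, a cell surface proteoglycan that binds CXCL10, was higher (0.23). The scavenging receptor gene Ackr3 had no count in any library.

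Markers of other cells moved with some of these values. As background for the counts of markers, 22.7% of all tested genes were lower and 22.4% higher. Of 16 T and NK cell markers, 7 were at 0 in every library, Cd3d, Cd3e, Cd3g and Ncr1 among them, and 2 of 3 tested, Cxcr3 and Cd8a, were lower. All 16 summed to 1.41 to 1.51 CPM in thrombocytopenic and 2.85 to 4.04 CPM in control libraries. The other 15 markers beside Cxcr3 summed to 0.755 to 1.05 CPM in thrombocytopenic and 1.17 to 1.88 CPM in control libraries. Markers of plasmacytoid dendritic cells, which can carry CXCR3, were lower in 4 of 5 members and summed to 120 to 124 CPM in thrombocytopenic and 159 to 162 CPM in control libraries, most of it Tcf4. Siglech, their defining marker, was at 0.313 ± 0.064 CPM in thrombocytopenic and 1.39 ± 0.099 CPM in control libraries. Ccr9 (0.04) was the member not past the threshold, at 3.70 CPM in thrombocytopenic and 3.62 CPM in control libraries. Markers of conventional dendritic cells, which can also make CXCL9 and CXCL10, were lower in 3 of 5 tested members and summed to 25.4 to 27.7 CPM in thrombocytopenic and 39.9 to 42.4 CPM in control libraries. The lower members were Zbtb46 (-1.52), Flt3 (-1.29) and Ccr7 (-0.88), while Clec9a (-0.86) and Clec10a (0.14) were not past the threshold. Xcr1, which was not tested, had 18 counts in thrombocytopenic and 22 in control libraries. Macrophage markers were lower in 6 of 9 tested members and higher in 3, with C1qa at -0.71 and Adgre1 at 0.28, and summed to 4744 to 4975 CPM in thrombocytopenic and 4450 to 4603 CPM in control libraries. Markers of endothelial cells and fibroblasts, other cells that make these ligands, were lower in 3 of 3 tested members and summed to 22.7 to 24.2 CPM in thrombocytopenic and 69.6 to 70.8 CPM in control libraries, mainly Kdr at 19.3 CPM in thrombocytopenic and 63.2 CPM in control libraries, while Tek, Col1a1 and Col1a2 had 6 or fewer counts in a group. The part of these cells in the change of the ligand genes and of Cxcr3 was not tested.

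All 12 monocyte markers were tested, led by Lyz2 at 13700 CPM in thrombocytopenic and 11980 CPM in control libraries. Their sum was 17900 to 18060 CPM in thrombocytopenic and 15720 to 16190 CPM in control libraries. Of them 7 were higher and 4 lower, with Cx3cr1 at -2.19 and Ly6c2 at -0.49. Over all tested genes 22.4% were higher and 22.7% lower. The macrophage marker Adgre1 was at 3283 CPM in thrombocytopenic and 2711 CPM in control libraries. These values therefore do not tell monocytes from macrophages. Summed B cell markers were under 2 CPM in each library and Ly6g, of neutrophils, had 0 counts in thrombocytopenic and 1 in control libraries. Neutrophil markers summed to 490 to 496 CPM in thrombocytopenic and 372 to 389 CPM in control libraries, mostly Mmp8. Haemoglobin gene Hba-a1 had 0 counts in thrombocytopenic and 180 in control libraries. Platelet markers summed to 1221 to 1293 CPM in thrombocytopenic and 1004 to 1049 CPM in control libraries, nearly all Pf4 and Ppbp, which were both higher. Pf4 was at 1094 CPM in thrombocytopenic and 924 CPM in control libraries. Whether its promoter switched on the toxin receptor in the cells sequenced was not tested. The other 2 tested platelet markers were lower: Gp9, of the platelet receptor for von Willebrand factor, had 0 counts in thrombocytopenic and 41 in control libraries, and Itga2b, an integrin of platelets, had 36 counts in thrombocytopenic and 75 in control libraries (log2 fold change -1.27, edgeR adjusted p = 0.00245). The files summed to 29883019 to 37552029 counts in thrombocytopenic and 24842319 to 35955383 counts in control libraries.

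The genes around the 3 ligand genes did not all move with them. Art3, a gene of the ADP-ribosyltransferase family on the opposite strand, spans Cxcl10 and Cxcl11, and its exons share 133 bases with those of Cxcl10 in GENCODE M21 and none with those of Cxcl9 or Cxcl11. The library kit marks strand, but no source used here says if counting made use of it, so reads in the shared bases are uncertain. Art3 had 12, 18 and 22 counts in thrombocytopenic and 33, 56 and 41 counts in control libraries (log2 fold change -1.51, SE 0.27; edgeR adjusted p = 7.38e-06). Art3 thus had at most 56 counts in a library, where Cxcl10 had at least 105476. Beyond the ligand genes, Naaa was at 87.4 ± 2.6 CPM in thrombocytopenic and 53.6 ± 1.3 CPM in control libraries (0.71) and Ppef2 was also higher (0.85). Sdad1 (0.18) and Nup54 (0.24), the nearest protein-coding genes on either side, were slightly higher, and Scarb2 (-0.41) was lower.

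Likeness in pattern was sought among 7613 tested genes with a mean of at least 10 CPM, leaving out predicted gene, clone and pseudogene names. The genes most like each ligand gene had the smallest root mean square difference of log2 CPM, centred for each gene, over the 6 libraries. For Cxcl10 these were Fscn1 (0.027), Gpr84 (0.027), Oasl1 (0.029), Ly6c2 (0.030) and Coq2 (0.032). For Cxcl9 they were Dennd2a (0.067), Tmcc3 (0.069), Blnk (0.071), Cd86 (0.076) and H2-Eb1 (0.076). For Cxcl11 they included Adgb (0.057), Irf2bp2 (0.062), Cd200r4 (0.067) and Fam20c (0.072). Between the ligand genes themselves the difference was 0.158 for Cxcl11 and Cxcl9, 0.205 for Cxcl9 and Cxcl10 and 0.308 for Cxcl11 and Cxcl10. These values are a description, as the libraries fall into 2 groups that set most of the pattern.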

How the data were processed

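Each library has 1 deposited file of raw read counts by gene, whole numbers whose total differs between files. The tools named per the submitters' processing notes are Salmon 1.5.2, featureCounts, Subread 2.0.1, STAR 2.7.9a and fastp 0.23.1, with no role or order. Genome build, annotation and strand setting: not given in the sources used here. Per the labels' protocols, libraries of polyadenylated RNA were made with a stranded TruSeq kit and sequenced on a NovaSeq6000.

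The counts were analysed as deposited in R 4.3.3. Genes passing edgeR's filterByExpr (minimum count 10, minimum total 15; 12488 genes) were TMM-scaled on file totals and compared with edgeR 4.0.16 (robust quasi-likelihood fit on group alone, two-sided, Benjamini-Hochberg adjustment, threshold 0.05). The SE is |log2 fold change| over the root of F. For differences between genes the fit was repeated with the log count of 1 ligand gene as library offset. Lists were described by counts and medians. Named from a list were members whose role a sentence needs, otherwise the 3 tested members with the smallest p and any not past the threshold or moving against the rest. Beside these, the 5 genes most like each ligand gene and the genome neighbours were named. Any other gene was named after its values were seen. A few genes that this rule selects are not reported here. The members and lists were chosen with earlier results of these data known. The fits were tested on simulated data. As alternatives the comparison was rerun with RLE, upper quartile or library total scaling, other filters, DESeq2 1.42.0, limma-voom in limma 3.58.1, edgeR without the robust option, a replicate block and each library left out. Counts of libraries in the same group differed beyond sampling noise (chi-square of 1.91 to 3.27 per degree of freedom), and all 6 were kept as separate.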

Additional observations from a re-analysis of the deposited data

How the results depend on the processing

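Cxcl9, Cxcl10 and Cxcl11 stayed lower and past the threshold under all 15 alternatives, with log2 fold changes of -0.97 to -0.83, -0.56 to -0.50 and -1.20 to -1.08, and highest adjusted p-values of 1.81e-09, 1.77e-14 and 1.90e-12. The number of genes called ranged from 4720 to 5645 (main value 5626), and the median of all genes moved by at most 0.034 on the log2 scale. The larger fall of Cxcl9 and Cxcl11 than of Cxcl10 held under the 8 alternatives run. The log2 difference of Cxcl11 from Cxcl9 ran from -0.34 to -0.18 over the libraries left out, past the threshold in 2 of 6. Counts of list members called moved by over 1.5 times in 7 of 360 recomputations, all of counts of 2 or fewer. Alternatives for the comparisons of lists with a ligand gene were chosen after seeing the data; with limma on log2 ratios 3 antiviral genes and 1 GTPase gene fell by more than Cxcl10, against 6 and 2 in the report, and the cause was not tested. Same-numbered libraries did not deviate together (correlation -0.067 to 0.0043 over genes). A shared number could still mark libraries handled together, which this check cannot exclude. A replicate block gave -0.89, -0.53 and -1.14 for Cxcl9, Cxcl10 and Cxcl11 and 5398 called genes. Depth limits Cxcl9, Cxcl11 and Cxcr3, whose counting error is several percent or more.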
